A study of Homo sapiens with 8 samples.

Results

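Expression of 10 immediate early transcription factors was followed in U373, an established line of human astrocytoma cells. The genes are FOS, FOSL1, FOSL2, JUN, JUNB, EGR1, EGR3, IER2, KLF4 and MYC, out of 18417 genes measured on the same arrays. They were chosen by name. Each is represented by the probe set that the platform annotation pairs with that gene symbol alone, and none of the 10 has a second such probe set. Cells were kept for a day in medium with hormone-free serum and then treated for 12 h. The 4 groups were 10 nM progesterone together with 1 µM RU-486 (mifepristone, an antagonist of the progesterone and glucocorticoid receptors), 1 µM RU-486 alone, 10 nM progesterone alone, and vehicle. Each group had 2 Affymetrix Human Gene 1.0 ST arrays, 8 in all. The replicates are labelled as biological, but separate cultures are not mentioned, so a p-value reflects only how far these samples spread, which may be technical. The design is a single line at a single time and dose of each steroid. The cell line field of the labels shortens the name U373, and some labels give the antagonist another compound number, read here as RU-486.

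Immediate early genes are transcribed within minutes of a stimulus such as serum, a growth factor or stress, with no need for new protein synthesis, and most of their transcripts decay fast. ERK and other MAP kinases act on the serum response factor SRF and its ELK partners at their promoters, and CREB and ATF factors act at cyclic AMP response elements. FOS and JUN family proteins pair into the AP-1 dimer, EGR proteins are zinc-finger activators that also switch on their own NAB repressors, and MYC pairs with MAX to raise genes of growth and ribosome production. In astrocytes and gliomas these genes are known as readouts of growth factor signalling.

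The promoters of EGR1, KLF4 and FOS are printed because, with MYC, these genes had the largest differences between group means among the members. Sequences and coordinates are RefSeq's on build GRCh38.p14 and run 5′ to 3′ along the gene, from 250 bases before the annotated start to 50 bases after it. Capitals mark matches on either strand to the motifs named below.
EGR1 promoter, chr5:138465229-138465528, plus strand: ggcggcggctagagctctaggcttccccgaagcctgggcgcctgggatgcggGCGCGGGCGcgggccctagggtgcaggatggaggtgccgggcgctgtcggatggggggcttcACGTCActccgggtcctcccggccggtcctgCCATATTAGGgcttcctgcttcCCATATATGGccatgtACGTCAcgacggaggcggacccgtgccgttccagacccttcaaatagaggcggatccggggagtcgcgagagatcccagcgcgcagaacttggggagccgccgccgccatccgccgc
KLF4 promoter, chr9:107489720-107490019, minus strand: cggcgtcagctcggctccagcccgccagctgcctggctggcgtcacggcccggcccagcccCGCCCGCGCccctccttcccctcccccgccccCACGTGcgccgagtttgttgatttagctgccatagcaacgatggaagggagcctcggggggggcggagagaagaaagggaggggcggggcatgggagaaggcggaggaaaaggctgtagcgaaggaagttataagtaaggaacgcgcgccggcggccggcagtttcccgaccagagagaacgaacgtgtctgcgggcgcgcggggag
FOS promoter, chr14:75278578-75278877, plus strand: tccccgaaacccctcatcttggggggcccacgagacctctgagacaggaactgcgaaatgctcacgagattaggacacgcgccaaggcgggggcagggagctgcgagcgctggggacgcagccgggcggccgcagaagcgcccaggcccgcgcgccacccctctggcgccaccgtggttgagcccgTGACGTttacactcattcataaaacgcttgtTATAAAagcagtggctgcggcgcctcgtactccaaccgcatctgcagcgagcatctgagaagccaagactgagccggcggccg
The EGR1 window held 2 CArG boxes, the SRF motif, at positions -105 to -96 and -83 to -74 from the start. It also held 1 copy of the EGR motif GCGNGGGCG and 2 copies of the cyclic AMP response element core TGACGT. Both TGACGT copies lay on the strand opposite to the one printed. The FOS window held 1 TGACGT at -64 to -59 and a TATAAA at -33 to -28. The KLF4 window held 1 GCGNGGGCG, on the strand opposite to the one printed, and 1 E-box CACGTG, the MYC-MAX motif. Of 35116 promoter windows of the same length, 1.29% held a CArG box, 7.98% TGACGT, 9.43% GCGNGGGCG, 7.26% CACGTG and 11.5% TATAAA. In the windows of 7 members searched (FOS, FOSL2, JUN, JUNB, EGR1, IER2 and KLF4), 1 held a CArG box, 3 TGACGT, 2 GCGNGGGCG, 1 CACGTG and 2 TATAAA. The AP-1 motif TGANTCA was in the FOSL2 window, 1 of the 7, and in 7.71% of all windows. The ATF4 motif TGATGNAA and AGAACA, an arm of the element bound by progesterone and glucocorticoid receptors, were in 0 of the 7 windows and in 3.62% and 14.8% of all. TGACGT and TGANTCA can overlap in sequence, and a match is a description of letters only. Bases beyond these windows were not searched, so a motif missing here can still lie farther upstream.

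All values are log2 expression as deposited, and a difference of log2 values is given as treated minus control with its standard error (SE). The signal of a probe set also depends on its probes, so levels are compared between arrays and not between genes. All 10 members lay above 6.22 on all 8 arrays, the level under which 95% of 341 olfactory receptor genes fell. EGR3 and KLF4 were the closest to it, with means over the arrays of 6.59 and 6.99. As for the label of the line, 7 of 7 astrocytoma markers had a mean above that level, among them VIM at 13.37 and GFAP at 7.54. Of other cell types, 2 of 4 markers of neurons did so, 1 of 4 of oligodendrocytes, 1 of 6 of microglia and leukocytes, 2 of 5 of endothelium, 3 of 5 of fibroblasts and 3 of 5 of epithelium. Among these CD68 stood at 10.57, COL1A2 at 10.19, KRT18 at 9.62 and CDH5 at 8.57, and PTPRC at 3.44, PECAM1 at 4.96 and EPCAM at 4.74 lay below the level. The progesterone pair differed more than the other pairs. Over all genes the SD of replicate 1 minus replicate 2 was 0.17 for the combination, 0.16 for RU-486, 0.35 for progesterone and 0.18 for vehicle.

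Among the members too the progesterone pair differed most. Their median absolute difference between the 2 arrays of a group was 0.048 for the combination, 0.12 for RU-486, 0.21 for progesterone and 0.091 for vehicle. Of the 10 members 5 were higher on replicate 1 for the combination, 5 for RU-486, 8 for vehicle and all 10 for progesterone. The median over all probe sets was also higher on progesterone replicate 1, at 7.02 against 6.95 on progesterone replicate 2. The share of all genes higher on that array was not computed. Within the progesterone pair EGR1 differed by 0.52, FOSL1 by 0.46, MYC by 0.35 and IER2 by 0.28. FOS differed by 0.010, FOSL2 by 0.014 and EGR3 by 0.015. The fit to all 8 arrays shares 1 estimate of a gene's spread among the 4 groups. This gap is therefore part of every SE and p-value below from that fit, also where no progesterone array is compared. In comparisons that use progesterone arrays it bears on the difference as well. The part of the gap in each result was not tested beyond leaving out either array.

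**Figure D1:**
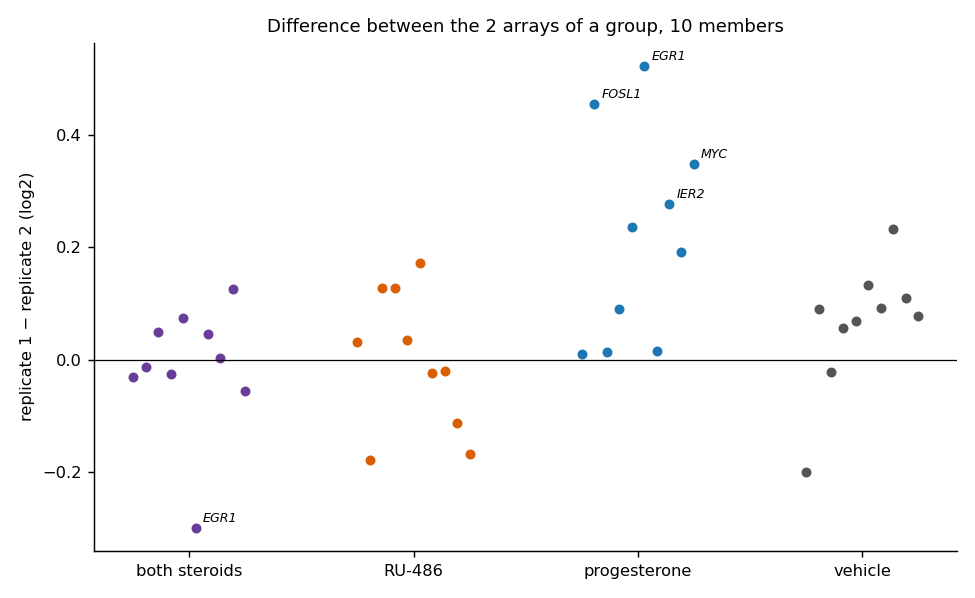
Replicate 1 minus replicate 2 in log2 units (vertical axis) for the 10 members, 1 point each in the order FOS, FOSL1, FOSL2, JUN, JUNB, EGR1, EGR3, IER2, KLF4 and MYC, in each of the 4 groups (horizontal axis). The progesterone points all lie above 0, with EGR1 at 0.52 and FOSL1 at 0.46, and members differing by over 0.25 are named.

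EGR1, a zinc-finger activator induced by serum and growth factors, was the member with the widest range over the arrays, 0.86 log2 units. It read 9.78 and 10.08 on the combination arrays, 10.01 and 9.84 on the RU-486 arrays, 10.43 and 9.91 on the progesterone arrays, and 10.64 and 10.50 on the vehicle arrays. Both vehicle arrays lay above all 6 treated arrays, which held for 2.24% of all genes and for 1 of the 10 members. EGR1 averaged 9.93 ± 0.21 with the combination and 10.57 ± 0.09 in vehicle (SD, n = 2 each), a difference of -0.64 ± 0.18 (SE) or 0.640-fold (limma adjusted p = 0.374, not passed). RU-486 alone gave a mean of 9.93 ± 0.12 and a difference from vehicle of -0.65 ± 0.18 (limma adjusted p = 1.00, not passed). Progesterone alone gave 10.17 ± 0.37 and a difference of -0.40 ± 0.18 (limma adjusted p = 0.741, not passed), which was -0.66 without progesterone replicate 1 and -0.14 without progesterone replicate 2. Among the 18417 genes EGR1 ranked 97th by p for RU-486 against vehicle and 404th for the combination against vehicle. The 3 comparisons share the same 2 vehicle arrays.

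EGR3, a related zinc-finger factor, was dimmer and moved over 0.26 log2 units. It read 6.49 and 6.44 on the combination arrays, 6.68 and 6.70 on the RU-486 arrays, 6.65 and 6.64 on the progesterone arrays, and 6.62 and 6.53 on the vehicle arrays. The combination arrays were the lowest of the 8 and the RU-486 arrays the highest. Both combination arrays below the other 6 held for 6.48% of all genes, and both RU-486 arrays above the other 6 for 1.17%. The combination differed from RU-486 by -0.22 ± 0.08 (limma adjusted p = 0.769) and from vehicle by -0.11 ± 0.08 (limma adjusted p = 0.50), and neither passed.

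FOS, which pairs with JUN in AP-1, was lowest after progesterone alone. It read 8.18 and 8.21 on the combination arrays, 8.15 and 8.12 on the RU-486 arrays, 7.96 and 7.95 on the progesterone arrays, and 8.14 and 8.34 on the vehicle arrays. Both progesterone arrays lay below the other 6, as they did for 7.61% of all genes and for 2 of the members, FOS and KLF4. Progesterone differed from vehicle by -0.29 ± 0.09 or 0.818-fold (limma adjusted p = 0.741, not passed), and the vehicle arrays themselves differed by 0.20. With RU-486 added to progesterone the mean was 8.19 ± 0.02, against 7.95 ± 0.01 with progesterone alone (SD, n = 2 each), a difference of 0.24 ± 0.09 (limma adjusted p = 0.309, not passed). The FOS arrays of the combination and of vehicle overlapped.

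FOSL1 and FOSL2, the FOS relatives that stay longer after a stimulus, had smaller differences between groups. FOSL1 read 10.14 and 10.15 on the combination arrays, 9.98 and 10.16 on the RU-486 arrays, 10.21 and 9.75 on the progesterone arrays, and 10.02 and 9.93 on the vehicle arrays. The 2 progesterone arrays were the highest and the lowest of the 8, so that the spread inside that group was as wide as the whole range. FOSL2 read 11.36 and 11.31 on the combination arrays, 11.30 and 11.17 on the RU-486 arrays, 11.42 and 11.40 on the progesterone arrays, and 11.34 and 11.36 on the vehicle arrays. Its RU-486 arrays were the lowest of the 8 and its progesterone arrays the highest, within a range of 0.24. Both arrays of a group below the other 6 for RU-486 held for 2.05% of all genes, and above them for progesterone for 2.07%. FOSL2 differed from vehicle by -0.11 ± 0.08 after RU-486 (limma adjusted p = 1.00) and by 0.060 ± 0.080 after progesterone (limma adjusted p = 0.881), and neither passed.

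JUN and JUNB, the partners of the FOS proteins, were among the steadiest members. JUN read 9.90 and 9.93 on the combination arrays, 9.82 and 9.70 on the RU-486 arrays, 9.80 and 9.71 on the progesterone arrays, and 9.90 and 9.85 on the vehicle arrays. Each single steroid lay below vehicle without overlap, by -0.11 ± 0.08 for RU-486 (limma adjusted p = 1.00) and -0.12 ± 0.08 for progesterone (limma adjusted p = 0.769), neither of which passed. Of all genes 15.7% were lower without overlap for RU-486 and 15.8% for progesterone. The combination arrays were the highest of the 8, though above the higher vehicle array by less than their own SD of 0.018, and both combination arrays lay above the other 6 for 15.2% of all genes. JUNB read 9.45 and 9.37 on the combination arrays, 9.35 and 9.32 on the RU-486 arrays, 9.43 and 9.20 on the progesterone arrays, and 9.41 and 9.34 on the vehicle arrays. Its progesterone arrays enclosed both vehicle arrays, and its difference from vehicle was 0.033 ± 0.099 for the combination, -0.045 ± 0.099 for RU-486 and -0.063 ± 0.099 for progesterone. Over the 8 arrays the SD of FOSL2, JUN and JUNB lay between the 13.8th and the 21.4th percentile of all genes, while that of EGR1 lay at the 95.3rd and that of MYC at the 90.7th.

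MYC, which drives growth and ribosome production, was higher on every array with RU-486 than on every array without it. It read 8.77 and 8.83 on the combination arrays, 8.65 and 8.82 on the RU-486 arrays, 8.47 and 8.12 on the progesterone arrays, and 8.47 and 8.39 on the vehicle arrays. The lowest of the 4 arrays with the drug stood at 8.65 and the highest of the 4 without it at 8.47. Its difference from vehicle was 0.37 ± 0.13 or 1.29-fold for the combination (limma adjusted p = 0.374), 0.31 ± 0.13 for RU-486 alone (limma adjusted p = 1.00) and -0.13 ± 0.13 for progesterone alone (limma adjusted p = 0.824), none of which passed.

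KLF4, a zinc-finger factor of growth arrest and of the pluripotent state, had the same separation. It read 7.24 and 7.11 on the combination arrays, 7.06 and 7.18 on the RU-486 arrays, 6.84 and 6.64 on the progesterone arrays, and 6.97 and 6.86 on the vehicle arrays. All 4 arrays with RU-486 lay above all 4 without it, and both progesterone arrays were the lowest of the 8. Its difference from vehicle was 0.26 ± 0.10 or 1.20-fold for the combination (limma adjusted p = 0.374), 0.20 ± 0.10 for RU-486 alone (limma adjusted p = 1.00) and -0.18 ± 0.10 for progesterone alone (limma adjusted p = 0.745), none of which passed. IER2, a nuclear immediate early protein, read 8.44 and 8.44 on the combination arrays, 8.28 and 8.30 on the RU-486 arrays, 8.53 and 8.25 on the progesterone arrays, and 8.58 and 8.35 on the vehicle arrays. The combination arrays of IER2 lay between the vehicle arrays, and the RU-486 arrays lay just below both of them, at -0.17 ± 0.12 (limma adjusted p = 1.00, not passed). Both RU-486 arrays lay below both vehicle arrays for 15.7% of all genes.

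**Figure D2:**
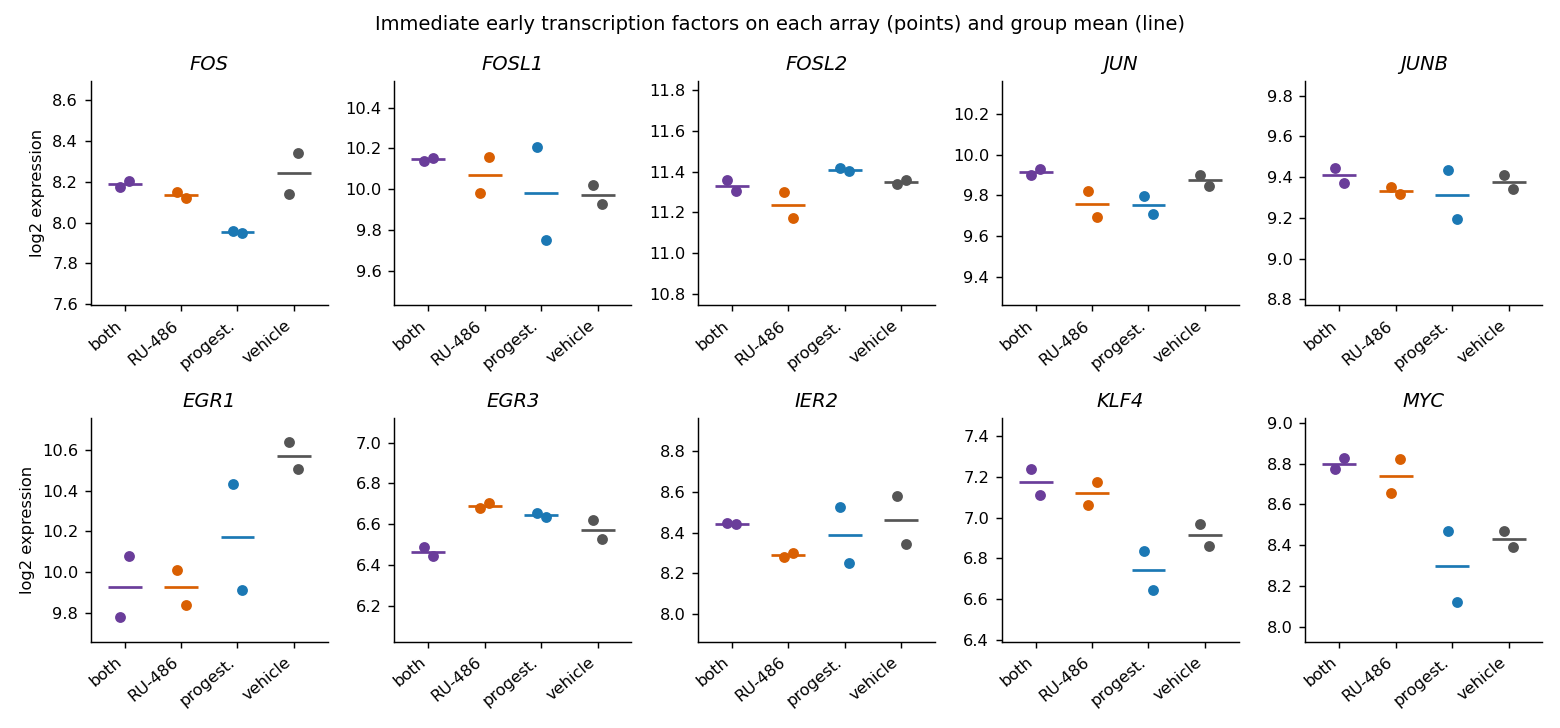
Log2 expression (vertical axis, the same height of scale in every panel) of the 10 members on each array (points) with the group mean (line), for both steroids, RU-486, progesterone (progest.) and vehicle from left to right. EGR1 is highest on both vehicle arrays, at 10.64 and 10.50, and MYC and KLF4 are higher on the 4 arrays with RU-486 than on the 4 without.

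Against vehicle 0 of the 10 members passed in any of the 3 treatments, as did 0% of all genes in limma. At an unadjusted p under 0.05 the combination had 2 members higher, MYC and KLF4, and 1 lower, EGR1, where 6.92% of all genes were higher and 6.29% lower under that p. RU-486 alone had 1 higher, MYC, and 1 lower, EGR1, against 2.15% and 0.95% of all genes. Progesterone alone had 1 lower, FOS, against 2.45% of all genes. The median difference of the members was 0.007 for the combination, -0.076 for RU-486 and -0.098 for progesterone, beside 0.074, 0.014 and 0.004 over all genes in the same order. The arrays of 6 members did not overlap between the combination and vehicle, where 61.5% of all genes did not. That number was 7 for RU-486, against 39.7% of all genes, and 6 for progesterone, against 32.1%.

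**Figure D3:**
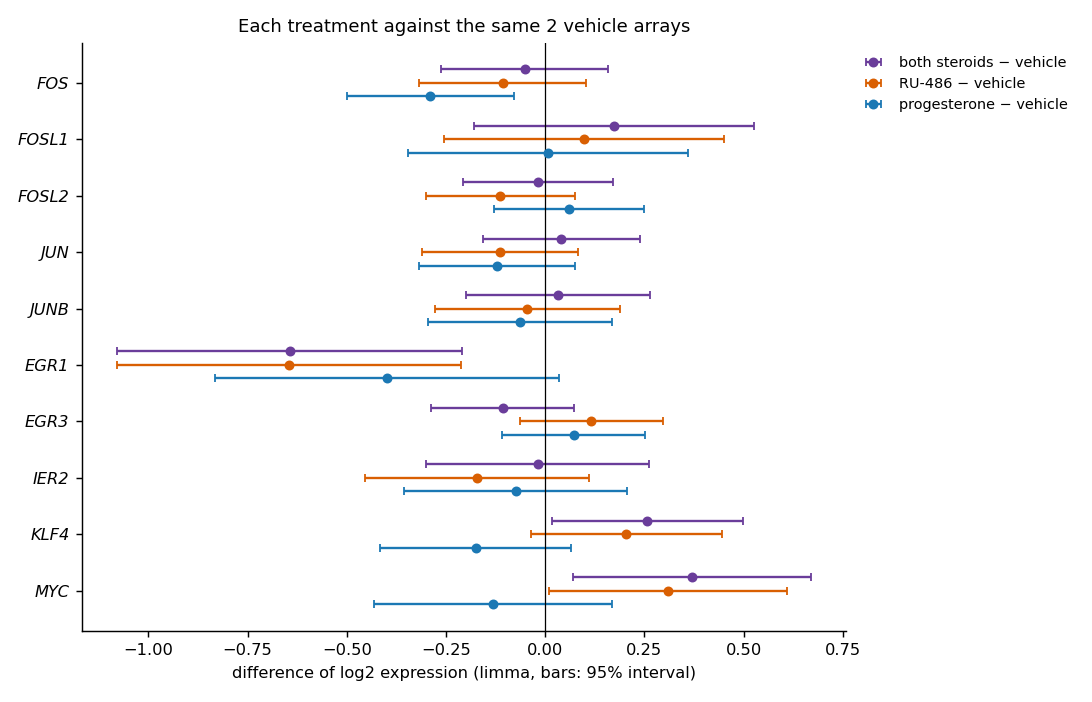
Difference of log2 expression from vehicle (horizontal axis) with its 95% interval from limma for each member, for both steroids, RU-486 and progesterone, all set against the same 2 vehicle arrays. EGR1 lies at -0.64, -0.65 and -0.40. Its interval for progesterone, -0.83 to 0.035, crosses 0, as do the intervals of most other members.

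The average effect of RU-486 sets the 4 arrays with the antagonist against the 4 without it, with progesterone balanced on both sides. MYC averaged 8.77 with and 8.36 without RU-486, a difference of 0.41 ± 0.09 or 1.33-fold (95% interval 0.19 to 0.62), and KLF4 averaged 7.15 with and 6.83 without, a difference of 0.32 ± 0.07 or 1.25-fold (0.15 to 0.49). EGR1 averaged 9.93 with and 10.37 without, a difference of -0.45 ± 0.13 or 0.734-fold (-0.75 to -0.14). The limma adjusted p was 0.333 for MYC, 0.339 for KLF4 and 0.421 for EGR1, so that 0 of the 10 members passed, where 0.0326% of all genes did. These 3 members, 2 higher and 1 lower, were the ones at an unadjusted p under 0.05, against 6.53% of all genes higher and 4.49% lower, and by p they ranked 145th, 161st and 462nd of 18417. MYC and KLF4 were the 2 members whose arrays did not overlap, both higher with RU-486, compared with 4.51% of all genes that were higher without overlap. For EGR1 progesterone replicate 2, at 9.91, fell among the arrays with RU-486. The other 7 members lay between -0.096 for FOSL2 and 0.13 for FOSL1, and the median over the 10 was 0.025, beside 0.032 over all genes. Without progesterone replicate 1, MYC at 0.49 (limma adjusted p = 0.0403) and KLF4 at 0.37 (limma adjusted p = 0.0408) passed, together with 998 genes in all. An alternative chosen after seeing the data left out both progesterone arrays. It compares the mean of the combination and RU-486 groups with vehicle, so that progesterone is on the treated side only. In it MYC stood at 0.34, KLF4 at 0.23 and EGR1 at -0.64, and 0 members passed.

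**Figure D4:**
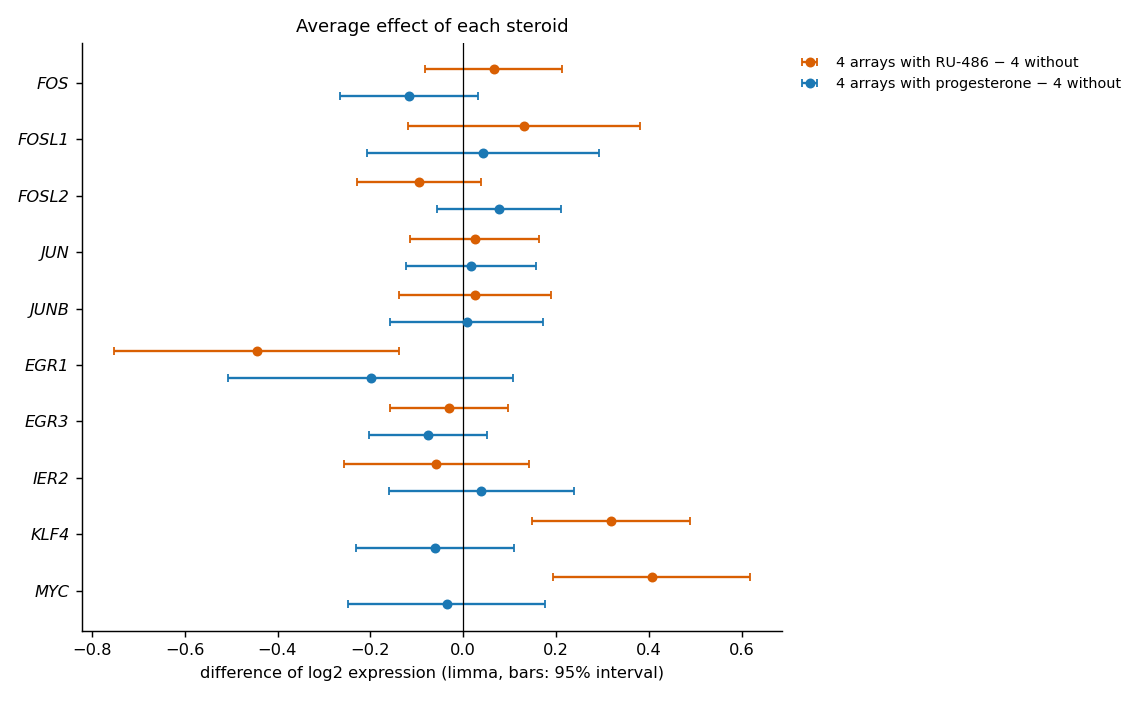
Average difference of log2 expression (horizontal axis) with its 95% interval from limma for each member, over 4 arrays with RU-486 minus 4 without, and over 4 arrays with progesterone minus 4 without. MYC at 0.41, KLF4 at 0.32 and EGR1 at -0.45 have intervals clear of 0 for RU-486 before adjustment over all genes, and for progesterone each interval crosses 0.

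RU-486 added to progesterone asks how the antagonist acts with the hormone present. MYC was higher by 0.50 ± 0.13 or 1.42-fold and KLF4 by 0.43 ± 0.10 or 1.35-fold in the combination than with progesterone alone (limma adjusted p = 0.266 each, not passed). FOS stood at 0.24 ± 0.09, and EGR1 at -0.24 ± 0.18 (limma adjusted p = 0.559). MYC, KLF4 and FOS were the 3 members at an unadjusted p under 0.05, all higher, as were 10.1% of all genes. In limma 0 members passed, as did 0% of all genes. Without progesterone replicate 1 the differences were 0.68 for MYC (limma adjusted p = 0.0427) and 0.53 for KLF4 (limma adjusted p = 0.0433), which both passed, among 1090 genes in all, while EGR1 turned to 0.017. Without progesterone replicate 2 EGR1 stood at -0.51.

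The interaction asks whether RU-486 acted differently with and without progesterone, as the difference between the combination and progesterone minus that between RU-486 and vehicle. FOS stood at 0.34 ± 0.13, with RU-486 adding 0.24 to progesterone and -0.11 to vehicle. EGR3 stood at -0.30 ± 0.11, with RU-486 adding -0.18 to progesterone and 0.12 to vehicle. EGR1 was at 0.40 ± 0.26, KLF4 at 0.23 ± 0.14 and MYC at 0.19 ± 0.18. Without progesterone replicate 1 the interaction was 0.66 for EGR1, 0.33 for KLF4 and 0.37 for MYC, and without progesterone replicate 2 it was 0.14, 0.13 and 0.019 for the same genes. The limma adjusted p was 0.828 for FOS, EGR3, EGR1, JUN, IER2 and KLF4 and 0.834 for MYC, so that no difference in response was called. FOS and EGR3 had an unadjusted p under 0.05, against 5.28% of all genes.

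The average effect of progesterone was computed in the same way. Over the 4 arrays with progesterone and the 4 without it, the members ran from -0.20 ± 0.13 for EGR1 to 0.077 ± 0.056 for FOSL2, with a median of -0.014 beside 0.030 over all genes. In limma 0 members and 0 genes passed, and 0 members had an unadjusted p under 0.05, against 5.03% of all genes. Progesterone added to RU-486, the combination against RU-486 alone, had EGR3 at -0.22 as its 1 member under that p, lower as were 1.56% of all genes, and the other 9 lay between 0.001 for EGR1 and 0.16 for JUN.

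Related genes from 7 lists were set beside the members for the average RU-486 effect, and 0 of them passed in limma in any of the 8 contrasts tested. The genes named from each list are those with the smallest p in this contrast, so that a lack of overlap is partly built in. Over all genes 4.51% were higher and 1.09% lower without overlap. Of 18 other immediate early transcription factors 10 were higher and 8 lower, with a median of 0.022. KLF10, a TGF-beta-induced repressor, stood at 0.25 ± 0.05, the stress-induced AP-1 relative ATF3 at 0.30 ± 0.07 and the orphan nuclear receptor NR4A2 at 0.30 ± 0.09, each higher on all 4 arrays with RU-486 than on the 4 without, and KLF2 stood at 0.11 ± 0.06 with overlap. Of 25 other immediate early genes 20 were higher and 5 lower, with a median of 0.12. SPRY2, an inhibitor of receptor-to-ERK signalling, stood at 0.52 ± 0.09, the steroid-induced kinase SGK1 at 0.37 ± 0.06, the growth-restraining BTG1 at 0.25 ± 0.06 and ZFP36, which marks AU-rich transcripts for decay, at 0.23 ± 0.08, all without overlap. At an unadjusted p under 0.05 lay 10 of these 25 genes as higher and 1 as lower, against 6.53% and 4.49% of all genes. The counts higher and lower were 3 and 0 for the 18 other factors and 6 and 0 for 13 AP-1 and EGR partners. They were 4 and 1 for 21 AP-1 targets and 0 and 2 for 15 upstream kinases and regulators. For 13 MYC partners they were 1 and 0, and for 18 MYC targets 2 and 0.

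Among upstream kinases and the SRF and CREB regulators 8 of 15 were higher and 7 lower, with a median of 0.036. The 4 with the smallest p were lower with overlap, with the CREB relative ATF2 at -0.37 ± 0.13, the ERK-activated kinase RPS6KA3 at -0.28 ± 0.12, CREB1 at -0.34 ± 0.15 and the SRF partner ELK4 at -0.17 ± 0.07. Among 13 partners and feedback genes of AP-1 and EGR 11 were higher and 2 lower, with a median of 0.14. The stress factor ATF4 stood at 0.49 ± 0.06 (limma adjusted p = 0.0794, not passed), the small MAF protein MAFG at 0.33 ± 0.06, the AP-1 repressor JDP2 at 0.29 ± 0.07 and the JUN partner BATF3 at 0.21 ± 0.06, and of these MAFG overlapped. Among 21 AP-1 targets 13 were higher and 8 lower, with a median of 0.036. The vascular growth factor VEGFA stood at 0.45 ± 0.07, the heme-degrading HMOX1 at 0.60 ± 0.12, the cytokine IL6 at 0.28 ± 0.09 and the integrin subunit ITGAV at -0.51 ± 0.17, the last 2 with overlap.

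Genes that work with MYC or are known as its targets were set beside it in the same way. Of 13 MYC partners and antagonists 9 were higher and 4 lower, with a median of 0.076. MYCN, the neuronal MYC relative, stood at 0.17 ± 0.06 without overlap, MGA, a MAX partner, at -0.25 ± 0.13, MLXIP at 0.096 ± 0.058 and the MYC antagonist MXI1 at 0.095 ± 0.058. Of 18 MYC targets 14 were higher and 4 lower, with a median of 0.081 beside 0.032 over all genes. The ribosome assembly factor RRS1 stood at 0.21 ± 0.08, the RNA polymerase I subunit POLR1B at 0.14 ± 0.06, the polyamine enzyme ODC1 at 0.12 ± 0.07 and DKC1, which modifies ribosomal RNA, at 0.093 ± 0.054, all with overlap.

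**Figure D5:**
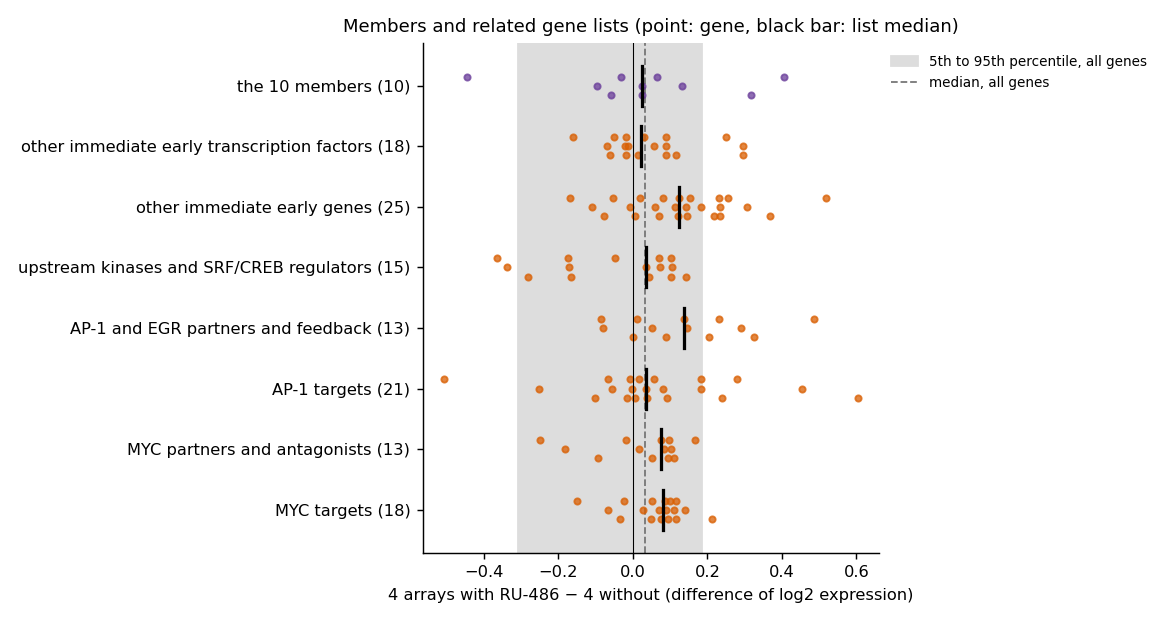
Average difference of log2 expression over 4 arrays with RU-486 minus 4 without (horizontal axis) for each gene (points) of the 10 members and 7 related lists, with the number of genes in brackets and the list median as a black bar. The members have a median of 0.025, close to the 0.032 of all genes (dashed line), and the shaded band holds the genes between the 5th and 95th percentiles.

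For the average progesterone effect the related genes with the smallest p did not pass either. PMAIP1, a BH3-only inducer of apoptosis, stood at -0.29 ± 0.09 and the synaptic immediate early gene ARC at 0.20 ± 0.10, both without overlap, as were 0.836% of all genes that were lower and 2.02% that were higher. NAB1, a repressor that binds EGR proteins, stood at -0.31 ± 0.11, MGA at -0.27 ± 0.13, IER5 at 0.21 ± 0.10, KLF6 at -0.14 ± 0.06, BATF2 at 0.19 ± 0.08 and TERT, the telomerase subunit, at 0.23 ± 0.09. Of MAP2K2, ELK3, MXD3, DKC1, MMP1 and CDKN2A, MAP2K2 was at 0.13, MXD3 at 0.11, CDKN2A at 0.19 and MMP1 at 0.20, and ELK3 was at -0.21 and DKC1 at -0.10. The limma adjusted p was 0.722 for each of these genes.

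The gene whose 8 array values were most like a member's was sought among 13906 other genes with a mean of at least 6. By Pearson's r over the 8 arrays, which carry all 4 treatments, it was HSPA5 for KLF4 (r = 0.996), ETV5 for MYC (0.984), ECD for EGR1 (0.975) and CDC6 for EGR3 (0.967). For AP-1 members it was PTPN21 for FOS (0.938), ADM for FOSL1 (0.980), PRELP for FOSL2 (0.972), INPP1 for JUN (0.966) and ZNF581 for JUNB (0.990), and for IER2 it was ACSS2 (0.966). ETV5 read 10.36 and 10.25 on the combination arrays, 10.17 and 10.36 on the RU-486 arrays, 9.91 and 9.54 on the progesterone arrays, and 9.88 and 9.85 on the vehicle arrays, which like MYC left the arrays with RU-486 above all those without. HSPA5 read 13.24 and 13.18 on the combination arrays, 13.15 and 13.20 on the RU-486 arrays, 13.05 and 12.98 on the progesterone arrays, and 13.12 and 13.08 on the vehicle arrays, the order of KLF4 on a smaller scale. These are the best of many candidates on few arrays and are a description only.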

How the data were processed

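The values deposited by the authors are on the log2 scale, 1 for each probe set on each array. The submitters' processing notes name RMA, oligo and limma, and versions and settings are not given in the sources used here. RMA generally subtracts background, makes the arrays' distributions alike and combines probes, so that a shift common to most genes is lost before deposit. Array medians ran from 6.93 to 7.02, and the number of arrays limits precision.

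Of 33297 probe sets 19460 pair with 1 gene symbol, and the one with the highest mean was kept for each of 18417 genes, with no filter on dim genes. All 10 members matched a RefSeq gene by identifier. limma 3.58.1 in R 4.3.3 (lmFit, eBayes) was fitted to the 4 group means of all 8 arrays with 4 residual degrees of freedom. Within each of 8 contrasts p-values were adjusted over all genes (Benjamini-Hochberg), and a gene passed at an adjusted p under 0.05. The pipeline was tested on simulated data in which a gene had the same spread in every group. A group with a wider spread, like the progesterone pair, was not simulated.

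The members, lists and tests were chosen with earlier results of these data known. Named genes are the members, per list up to 4 genes with the smallest p for RU-486 and up to 2 for progesterone, and each member's most similar gene. Alternatives were a replicate block, each array left out, quantile normalization, a filter at a mean of 6, other probe set choices, array weights, a trended prior, and fits to only the groups compared. Progesterone and RU-486 differ in dose and were not set against each other.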

Additional observations from a re-analysis of the deposited data

How the results depend on the processing

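The 10 members' differences in the 8 contrasts gave 1260 values under the alternatives, of which 1209 kept their direction and side of the threshold, 47 turned in sign (40 of them with 1 array left out) and 4 passed. The 4 were MYC and KLF4 for the average RU-486 effect and for the combination against progesterone, each without progesterone replicate 1. With 1 array left out, the lone array of a group is assumed to vary like the other groups, and the count of members that passed ran from 0 to 2 in those 2 contrasts. Some alternatives cannot move a member's difference by design and change only its p-value. These include the replicate block, other probe set choices, and an array left out of a group not compared. The count of 1209 of 1260 is therefore no measure of how stable the differences are. In the average RU-486 effect with 1 array left out, MYC ran from 0.32 to 0.49, KLF4 from 0.27 to 0.37 and EGR1 from -0.58 to -0.31. Over all alternatives KLF4 went down to 0.23 and EGR1 to -0.64, in the setting without both progesterone arrays. The count of members without overlap between arrays with and without RU-486 ran from 2 to 3, and was 3 without both progesterone arrays. Fewer arrays make a lack of overlap easier for any gene. The share of all genes was not computed in these settings, so that the rise is no result about the members.

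Counts over all genes moved more. With 1 array left out they ran from 0 to 998 for the average RU-486 effect, where 6 passed with all arrays, from 0 to 1090 for the combination against progesterone and from 0 to 1228 for progesterone against vehicle. The counts of 998 and 1090 were those without progesterone replicate 1, and 1228 that without progesterone replicate 2. The average RU-486 effect had 1 gene without RU-486 replicate 1 and 0 without RU-486 replicate 2 or without either array of the combination or of vehicle. The replicate number as a block gave 1 gene for the combination against vehicle and changed no member's call. The titles give only a number, and replicate 1 minus replicate 2 correlated between groups over genes at 0.20 to 0.51. Array weights gave 7 genes for the combination against vehicle and 3 for RU-486 against vehicle. A trended prior gave 43 genes for the average RU-486 effect and 17 for the combination against progesterone. With all probe sets tested the average RU-486 effect had 0.

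With quantile normalization IER2 was at 0.017 for the combination against vehicle, EGR1 at -0.0089 for the combination against RU-486 and FOSL2 at -0.018 for the interaction. Without both progesterone arrays the mean of the combination and RU-486 minus vehicle was -0.079 for FOS, -0.037 for JUN, -0.0061 for JUNB and 0.0047 for EGR3. That is not the average RU-486 effect itself, because progesterone is no longer balanced. With 1 array left out, the combination against vehicle ran from -0.15 to 0.048 for FOS, from -0.043 to 0.0066 for FOSL2, from -0.0044 to 0.070 for JUNB and from -0.14 to 0.10 for IER2. Progesterone against vehicle ran from -0.22 to 0.24 for FOSL1, from -0.18 to 0.055 for JUNB, from -0.21 to 0.064 for IER2 and from -0.31 to 0.042 for MYC. The combination against progesterone ran from -0.062 to 0.39 for FOSL1, from -0.023 to 0.21 for JUNB, from -0.51 to 0.017 for EGR1 and from -0.083 to 0.20 for IER2. The combination against RU-486 ran from -0.013 to 0.17 for FOSL1, from -0.15 to 0.15 for EGR1, from -0.0088 to 0.12 for KLF4 and from -0.023 to 0.15 for MYC. The average RU-486 effect ran from -0.0077 to 0.056 for JUN, from -0.034 to 0.085 for JUNB and from -0.13 to 0.012 for IER2. The average progesterone effect ran from -0.072 to 0.16 for FOSL1, from -0.016 to 0.049 for JUN, from -0.052 to 0.066 for JUNB, from -0.031 to 0.11 for IER2 and from -0.12 to 0.051 for MYC. The interaction ran from -0.16 to 0.30 for FOSL1 and from -0.029 to 0.10 for FOSL2. The cause of these changes was not tested.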
